A study of Mus musculus with 9 samples.

Results

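The Ugt1a genes of mouse chromosome 1 were described in 6 peak lists of the histone mark H3R2me2a, in which arginine 2 of histone H3 carries an asymmetric dimethyl group. The genes were chosen by position and because earlier results of these lists had shown peaks at their ends. All peaks overlapping chr1:88050000-88225000 (mm10) were taken, 182 of 1541235 listed peaks, together with the 9 Ugt1a genes of 21627 protein-coding genes. The mark was measured by chromatin immunoprecipitation and sequencing (ChIP-seq) in cultured mouse bone marrow cells, called leukemia cells in the study's design text, grown with interleukins and stem cell factor. The groups were Prmt6KO cells, which lack the methyltransferase that writes the mark, Igf2bp2KO cells, which lack an RNA-binding protein, and WT cells, with 2 libraries each. The 3 inputs, 1 per genotype, were not analysed here. The sources used here do not give strain, age, the leukemia driver or how each gene was deleted. Peak lists hold no expression values to check the cell type against its markers. The labels leave unsaid whether a genotype's libraries are from different mice or cultures, and their spread may be technical.

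The Ugt1a genes encode UDP-glucuronosyltransferases, membrane enzymes of the endoplasmic reticulum that join glucuronic acid to bilirubin, hormones, drugs and phenols so that these can be excreted. The locus is known for its layout: a row of alternative first exons, each with its own promoter, is spliced to a shared set of downstream exons, so the enzymes differ in their substrate-binding part and share their other end. Expression is highest in liver, gut and kidney, and blood cells are not a tissue in which the family is known for high expression. H3R2me2a is known mainly as a mark that opposes methylation of the neighbouring lysine of histone H3 at active promoters.

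All members lie on the forward strand (Ugt1a6b by the end it shares with Ugt1a8). In chromosomal order the starts are Ugt1a10 at 88055411, Ugt1a9 at 88070779, Ugt1a8 at 88087828, Ugt1a7c at 88095001, Ugt1a6b at 88103257, Ugt1a6a at 88134809, Ugt1a5 at 88166012, Ugt1a2 at 88200611 and Ugt1a1 at 88211959. Of the 9 genes, 7 end at 88220002, and Ugt1a6b and Ugt1a8 are annotated to end at 88218998. Ugt1a10 is therefore 164592 bp long and Ugt1a1 8044 bp, and each gene overlaps all genes that start after it. Exon positions were not used here, so each gene start stands for its first exon. The Ugt1a1 gene up to 88218998 is the stretch that all 9 members have in common.

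The bases just before 3 of the starts are shown because these starts carry the results that follow. Ugt1a1 begins at the edge of a stretch of dense peaks, and Ugt1a9 and Ugt1a10 are the 2 starts with a peak in both Prmt6KO libraries and in neither WT library. The sequences are from RefSeq (GRCm38.p6, the build mm10), forward strand, 5′ to 3′, and end at the base before the gene start, at chr1:88211709-88211958 for Ugt1a1, chr1:88070529-88070778 for Ugt1a9 and chr1:88055161-88055410 for Ugt1a10. Capitals mark the letters AGGTCA, the core motif bound by many nuclear receptors.
Ugt1a1: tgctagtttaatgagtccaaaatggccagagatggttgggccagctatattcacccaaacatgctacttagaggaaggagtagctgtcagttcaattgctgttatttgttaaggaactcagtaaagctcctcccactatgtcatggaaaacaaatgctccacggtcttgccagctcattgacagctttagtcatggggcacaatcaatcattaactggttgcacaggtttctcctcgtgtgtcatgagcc
Ugt1a9: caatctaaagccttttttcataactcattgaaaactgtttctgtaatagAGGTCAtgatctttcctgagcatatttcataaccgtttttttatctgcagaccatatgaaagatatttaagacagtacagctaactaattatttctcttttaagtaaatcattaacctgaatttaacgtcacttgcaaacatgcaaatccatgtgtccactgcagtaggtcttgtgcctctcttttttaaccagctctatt
Ugt1a10: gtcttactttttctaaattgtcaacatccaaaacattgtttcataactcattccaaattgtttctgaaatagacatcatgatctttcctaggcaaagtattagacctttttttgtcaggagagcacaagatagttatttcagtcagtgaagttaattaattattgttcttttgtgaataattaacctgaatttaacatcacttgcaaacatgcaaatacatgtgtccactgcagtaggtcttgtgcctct
RefSeq promoter windows of 250 bases before to 50 after the start were matched for 8 members. Ugt1a6b was not matched. The Ugt1a9 and Ugt1a10 windows were 84.7% identical over 274 aligned bases, and the other pairs among the 8 windows ranged from 66.1% to 76.7%, with no unrelated promoters aligned for comparison. On either strand, AGGTCA was found in Ugt1a9 and Ugt1a7c, 2 of 8 members, and in 16.3% of 32851 promoter windows of the genome. The letters GCGTG, the core of the site bound by the dioxin receptor AHR, were found in Ugt1a8 and Ugt1a5, against 32.4% of all windows. The letters TATAAA were in 0 of 8 members and 13.6% of all windows. For the liver factor HNF1, only the exact 13-letter palindromic site was matched, in 0 of 8 members and 0.00913% of all windows. So rare a match would be missing from almost any 8 windows, and sites that differ by a letter were not counted. Whether these promoters hold an HNF1 site is therefore not shown. None of these motifs contains another. These matches describe the letters of the windows alone.

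The lists held 812414 and 430225 peaks in Prmt6KO, 961 and 1221 in Igf2bp2KO, and 162454 and 133960 in WT. Heights are given in fragments over the summit, and as multiples of the background that the peak caller used for the list, which was 0.736 to 1.46 fragments and measures depth. The lowest listed summit was 2 and 3 fragments in Prmt6KO, 8 and 7 in Igf2bp2KO, and 4 and 4 in WT, so a low peak can be listed in Prmt6KO and not in Igf2bp2KO. WT replicate 1 stood apart from WT replicate 2 in the share of its peaks on chromosome X, 1.25% against 7.71%, so values are mostly given per library. The averages of the highest summit and the test away from gene ends use both WT libraries together. Each list has 1 background for the whole genome, so more of the mark at a place and more DNA of any kind there cannot be told apart.

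The locus fell into an upstream part with sparse, low peaks, or none in Igf2bp2KO, and a downstream part with dense, tall ones. Some downstream peaks were wide in Prmt6KO and WT, and the change lay near the Ugt1a1 start. The region held 75 and 38 peaks in Prmt6KO, 11 and 10 in Igf2bp2KO, and 29 and 19 in WT. A boundary at 88211000, set after the lists had been seen, left 161 kb with 8 starts before it and 14 kb with the Ugt1a1 start and all 9 ends after it. The first peak after the boundary began at 88211351 and 88211277 in Prmt6KO, at 88211665 and 88213427 in Igf2bp2KO, and at 88211237 and 88211516 in WT. In 5 of 6 libraries this was before the Ugt1a1 start, and in Igf2bp2KO replicate 2 it was after that start. The boundary itself lies less than 1 kb before the start, so the short distance in the 5 libraries follows from its position.

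**Figure D1:**
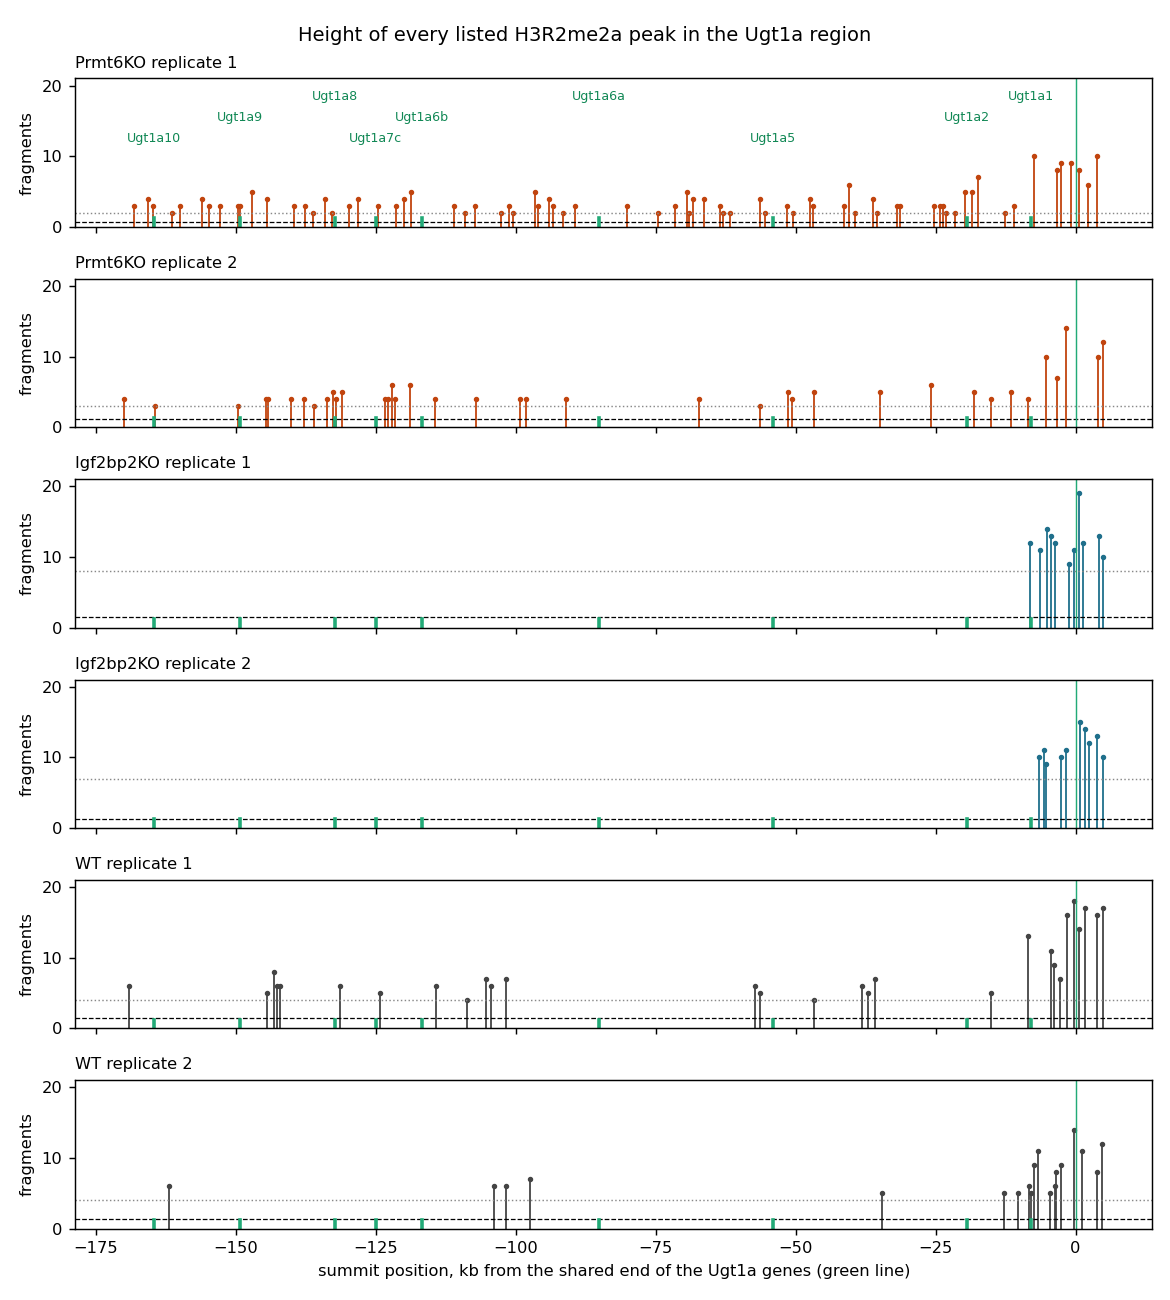
Height of every listed peak, in fragments over the summit, against its distance in kb from the shared gene end (green vertical line), with 1 panel per library. Green ticks mark gene starts, the dashed line the background and the dotted line the lowest summit in the whole list; summits reach 7 fragments in Prmt6KO and 8 in WT in the upstream part, where no Igf2bp2KO peak is listed, and 10 to 19 fragments in the 6 libraries from Ugt1a1 on.

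The downstream 14 kb were largely filled by listed peaks in Prmt6KO and WT and to a lesser part in Igf2bp2KO. The lowest summit that a list held was 8 and 7 fragments in Igf2bp2KO, against 4 and 4 in WT. The part of this limit in the lower Igf2bp2KO coverage was not tested. Peaks covered 86.8% and 89.0% of these bases in Prmt6KO, 37.4% and 33.1% in Igf2bp2KO, and 81.1% and 78.3% in WT. Over the genome the same lists covered 8.68% and 4.53% in Prmt6KO, 0.0174% and 0.0208% in Igf2bp2KO, and 1.66% and 1.39% in WT. Coverage at Ugt1a1 thus stood above the genome's level in every library, by the smallest ratio in the Prmt6KO lists, which covered the most elsewhere. The 10 kb bin from 88210001 to 88220000 was covered to 78.0% and 79.6% in Prmt6KO, 34.2% and 18.5% in Igf2bp2KO, and 73.0% and 66.6% in WT. Of 263154 such bins, between 0.00722% and 0.0338% were covered as far or farther. The family was chosen for peaks at its ends, and the bin by a boundary set after the lists had been seen. The high rank of the bin thus follows in part from that choice and describes the place only.

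Peak numbers told less than coverage there, because some peaks there were wide in Prmt6KO and WT. The downstream part held 7 and 6 peaks in Prmt6KO, 11 and 10 in Igf2bp2KO, and 10 and 12 in WT. The mean density of each list gives 4.32 and 2.29 peaks for this length in Prmt6KO, 0.00511 and 0.00650 in Igf2bp2KO, and 0.864 and 0.713 in WT. The longest peak was 5914 and 5385 bp in Prmt6KO, 784 and 1256 bp in Igf2bp2KO, and 4833 and 2813 bp in WT. Median widths over the whole lists were 206 and 222 bp in Prmt6KO, 320 and 300 bp in Igf2bp2KO, and 222 and 222 bp in WT. The longest of several peaks will mostly exceed a median, so shares of the lists are given too. Peaks as long made up 0.000985% and 0.00186% of the Prmt6KO lists and 0.00492% and 0.0291% of the WT lists. In Igf2bp2KO they made up 7.70% and 3.44%, so width there was less unusual. Whether the higher lowest summit of the Igf2bp2KO lists bears on width was not tested.

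Heights in the downstream part overlapped between the genotypes. Summits ran over 6, 9 and 10 fragments (lowest, median and highest) in Prmt6KO replicate 1 and 4, 10 and 14 in replicate 2. They ran over 9, 12 and 19 in Igf2bp2KO replicate 1 and 9, 11 and 15 in replicate 2. They ran over 7, 15 and 18 in WT replicate 1 and 5, 8.5 and 14 in replicate 2. On this scale the Prmt6KO medians lay between the medians of the WT libraries, as did those of Igf2bp2KO. The Igf2bp2KO lists hold no summit under 8 and 7 fragments, while WT replicate 2 listed summits down to 5 here. Medians of listed summits are therefore not a like comparison between these genotypes. In multiples of background the medians were 12.2 and 8.27 in Prmt6KO, 8.27 and 8.25 in Igf2bp2KO, and 10.3 and 5.91 in WT. On that scale Prmt6KO replicate 1 had the highest median and WT replicate 2 the lowest.

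**Figure D2:**
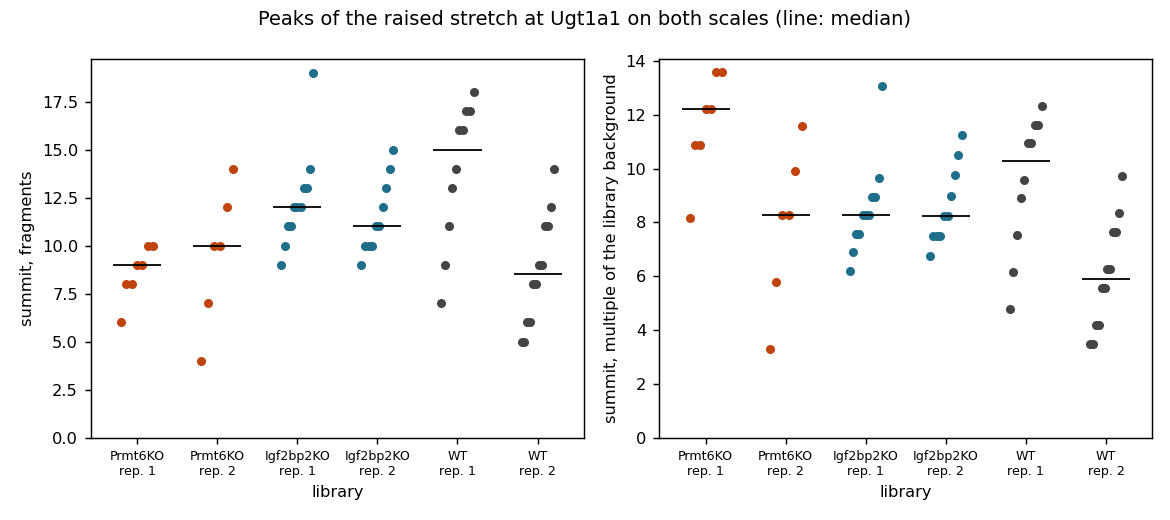
Summits of the peaks after 88211000, 1 point per peak and 1 column per library, in fragments (left) and in multiples of the library's background (right), with the median as a line. Prmt6KO replicate 1 has a median of 9 fragments and 12.2 times its background, and WT replicate 2 has 8.5 fragments and 5.91 times its background.

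The highest summit of the whole region lay in or just after Ugt1a1 in each library. In Prmt6KO it was 10 fragments in replicate 1, in the peak from 88211351 to 88215287 over the Ugt1a1 start, and 14 in replicate 2, in the peak from 88217217 to 88222601 over the shared end. In Igf2bp2KO it was 19 fragments at 88220417 to 88220794 and 15 at 88220153 to 88221408, both just past the shared end. In WT it was 18 fragments at 88219019 to 88220079 and 14 at 88218028 to 88220840, both reaching over the shared end. The shared end therefore held the highest peak or lay within 1 kb of it in 5 of 6 libraries, and in Prmt6KO replicate 1 the highest peak was at the start. A second peak of that library, from 88223450 to 88229363, also had 10 fragments.

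The order of the genotypes at this highest peak depended on the scale. In fragments it averaged 12 ± 2.83 in Prmt6KO, 17 ± 2.83 in Igf2bp2KO and 16 ± 2.83 in WT (SD, n = 2 each). As a multiple of background it averaged 12.6 ± 1.41 in Prmt6KO, 12.2 ± 1.30 in Igf2bp2KO and 11.0 ± 1.83 in WT (SD, n = 2 each). In the authors' fold enrichment, which is (pileup + 1) over (background + 1) on their scaled pileup, it averaged 6.56 ± 0.323 in Prmt6KO, 4.20 ± 0.374 in Igf2bp2KO and 6.94 ± 1.11 in WT (SD, n = 2 each). The difference of Prmt6KO from WT was 1.55 in multiples of background, -4 in fragments and -0.37 in the authors' fold. That of Igf2bp2KO from WT was 1.14 in multiples, 1 in fragments and -2.73 in the authors' fold. The members were chosen with such values known, so these differences were not tested. Without WT replicate 2, the multiple in Igf2bp2KO was lower than in WT by a difference of -0.153, and without WT replicate 1 it was higher by 2.43.

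As shares of their own lists, which differ in length, these peaks stood at very different levels. Peaks at least as high made up 0.0359% and 0.0556% of the Prmt6KO lists, 17.0% and 18.1% of the Igf2bp2KO lists, and 0.0825% and 0.145% of the WT lists. In numbers, 292 and 239 listed peaks were at least as high in Prmt6KO, 163 and 221 in Igf2bp2KO, and 134 and 194 in WT. The ranks by number were thus of similar size, and the shares differed with the length of the lists. At a q-value of 0.05 or below the region had 7 and 4 peaks in Prmt6KO, 0 and 0 in Igf2bp2KO, and 9 and 6 in WT. The authors' q depends on the scaled pileup, on which an Igf2bp2KO fragment counted for 0.277 and 0.302 units, and the 11 and 10 Igf2bp2KO peaks all reached at least 6 times the background in fragments. By that last measure Prmt6KO had 15 and 4 peaks in the region and WT had 9 and 6. The lowest summits of the whole lists were 5.51 and 5.25 times the background in Igf2bp2KO. They were 2.72 and 2.48 times in Prmt6KO and 2.74 and 2.78 times in WT. Passing the limit was thus nearly given for any listed Igf2bp2KO peak, and these counts do not compare strength between genotypes.

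The stretch did not end with the Ugt1a genes. From the region's edge at 88225001 to the start of Trpm8, a cold-sensing ion channel gene, at 88306735, peaks covered 66.5% and 59.8% of bases in Prmt6KO, 13.5% and 4.75% in Igf2bp2KO, and 51.5% and 40.7% in WT. These 81.7 kb contain Mroh2a and Hjurp, the gene of a chaperone that loads the centromeric histone variant, and held 70 and 71 peaks in Prmt6KO, 30 and 13 in Igf2bp2KO, and 61 and 70 in WT. Their highest summits were 11 and 13 fragments in Prmt6KO, 17 and 12 in Igf2bp2KO, and 15 and 13 in WT. Single peaks also crossed the edge of the region, such as the one from 88223450 to 88229363 in Prmt6KO replicate 1 and the one from 88224409 to 88229241 in WT replicate 1. In all 6 libraries dense peaks thus went on past the shared end of the family, but not equally far. In Igf2bp2KO replicate 2 the 5 kb bins at 17.5, 22.5, 37.5, 52.5 and 82.5 kb after that end held no listed peak. In Igf2bp2KO replicate 1 those at 27.5 and 62.5 kb held none. At the upstream edge, coverage rose between the 5 kb bins at -12.5 and -7.5 kb from the shared end. It rose from 8.92% to 73.0% in Prmt6KO replicate 1 and from 8.80% to 69.6% in replicate 2. Peaks of at least 6 times the background were also joined across gaps of up to 10 kb. In Prmt6KO replicate 1 this run began at 88200190, 11.8 kb before the Ugt1a1 start and next to the Ugt1a2 start. Its first peak had 5 fragments, or 6.79 times the lowest background of the 6 libraries. The part of that background in the earlier start was not tested. In the other 5 libraries such a run began between 88211237 and 88213427. The runs ended at 88309903 and 88243040 in Prmt6KO, 88309589 and 88232372 in Igf2bp2KO, and 88241808 and 88228904 in WT. The 100 kb before the region had 1.13 and 1.04 times the number of peaks expected from the list's mean density in Prmt6KO and 2.11 and 0.982 times in WT, and none was listed in Igf2bp2KO.

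**Figure D3:**
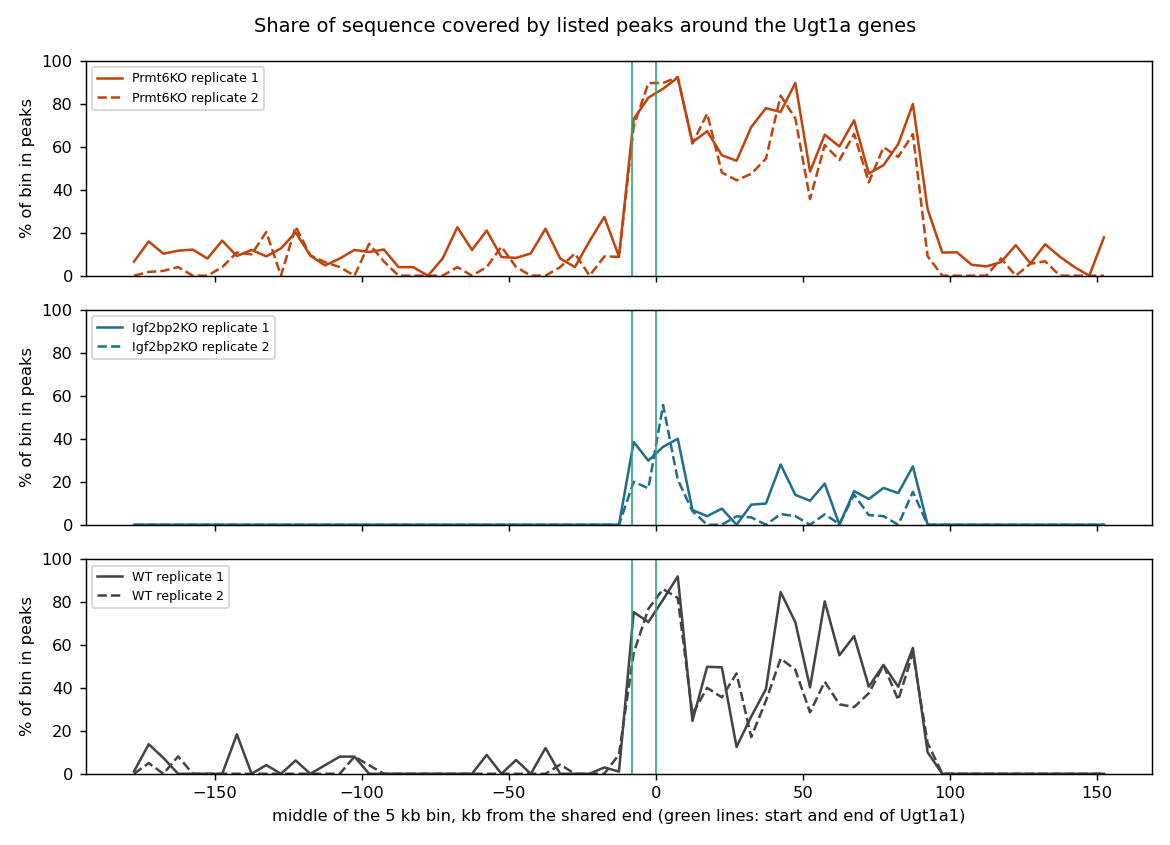
Percent of each 5 kb bin covered by listed peaks, against the distance of the bin's middle from the shared end in kb, with 1 panel per genotype and 1 line per library (solid for replicate 1, dashed for replicate 2). Green lines mark the start and end of Ugt1a1, where coverage steps up in the 6 libraries; it stays above the upstream level in the Prmt6KO and WT libraries up to about the Trpm8 start, and the Igf2bp2KO lines are lower in between.

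Among the starts, Ugt1a1 was the one with tall peaks. Ugt1a1 encodes the bilirubin-conjugating enzyme. The highest peak that reached within 1 kb of its start had 10 and 10 fragments in Prmt6KO, 12 and 0 in Igf2bp2KO, and 13 and 9 in WT, where 0 means that no peak was listed. The start was thus marked in 5 of 6 libraries, with heights that overlapped between genotypes. These peaks can be wide: in Prmt6KO replicate 2 the peak ran from 88211838 to 88216437 with its summit at 88214684, inside the gene. Igf2bp2KO replicate 2 had its first peak at 88213427 to 88213797, with 10 fragments, outside the window.

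The 8 starts before Ugt1a1 had low peaks or none. At Ugt1a10, whose human counterpart is known from the gut, the highest peak had 4 and 3 fragments in Prmt6KO and none was listed in Igf2bp2KO or WT. At Ugt1a9, whose human counterpart conjugates phenols, it had 3 and 3 fragments in Prmt6KO and again none was listed in Igf2bp2KO or WT. At Ugt1a8 it had 2 and 5 fragments in Prmt6KO, 0 and 0 in Igf2bp2KO, and 6 and 0 in WT. These 3 starts were listed in both Prmt6KO libraries at heights of 2 to 5 fragments. Ugt1a10 and Ugt1a9 in replicate 2, with 3 fragments, and Ugt1a8 in replicate 1, with 2, were at the lowest height that their list held. At Ugt1a7c the highest peak had 3 and 0 fragments in Prmt6KO, 0 and 0 in Igf2bp2KO, and 5 and 0 in WT. At Ugt1a2, 2 peaks of 5 fragments each were listed in Prmt6KO replicate 1 and none in the other libraries. Ugt1a6b and Ugt1a6a, which encode phenol-conjugating enzymes, and Ugt1a5 had no peak within 1 kb of their starts in any library.

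**Figure D4:**
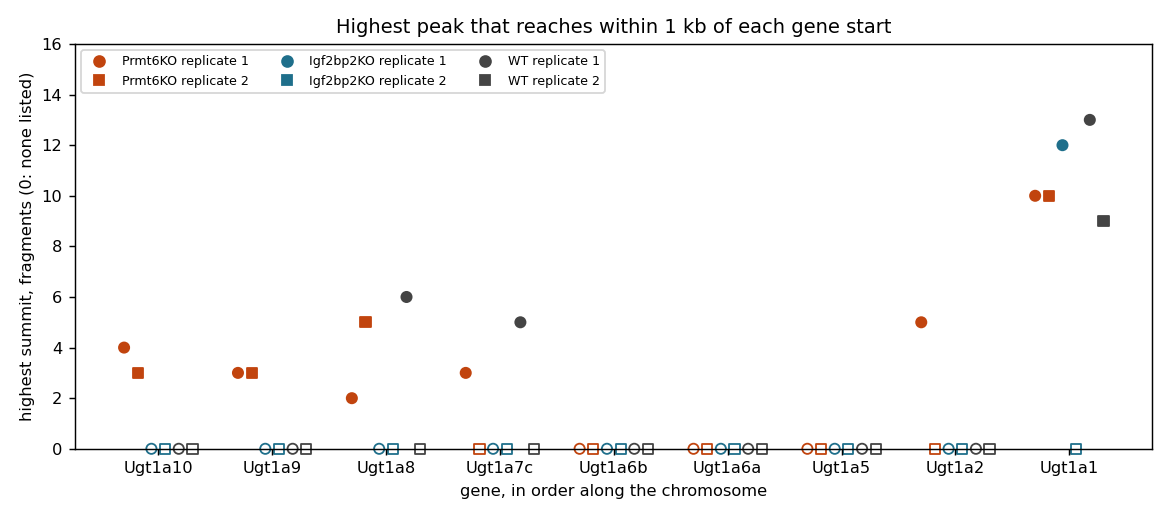
Highest peak that reaches within 1 kb of each gene start, in fragments, for the 9 genes in chromosomal order, with circles for replicate 1 and squares for replicate 2 and open symbols at 0 where no peak was listed. Ugt1a1 has 9 to 13 fragments in 5 libraries, the other listed values are 2 to 6 fragments, and Ugt1a6b, Ugt1a6a and Ugt1a5 are at 0 in the 6 libraries.

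Counted by gene, a start-window peak in both libraries was found for 4 of 9 members in Prmt6KO (Ugt1a10, Ugt1a9, Ugt1a8 and Ugt1a1), where 10.5% of 17274 genes with a known strand had one. It was found for 0 of 9 in Igf2bp2KO, against 0.0984% of genes, and for 1 of 9 in WT (Ugt1a1), against 1.16%. In single libraries, 6 and 4 members had such a peak in Prmt6KO against 46.2% and 20.3% of genes, 1 and 0 in Igf2bp2KO against 0.156% and 0.122%, and 3 and 1 in WT against 9.95% and 5.92%. The rule that chose the family used these lists at gene ends, so nothing is read from the difference. At 6 times the background in both libraries, Ugt1a1 was the 1 member left in Prmt6KO, against 0.191% of genes, and in WT, against 0.11%, and no member was left in Igf2bp2KO. No member lost its start peak in Prmt6KO, that is had one in both WT libraries and in neither knockout library, against 0.22% of genes, and none did in Igf2bp2KO, against 1.02%. With the opposite pattern, Ugt1a10 and Ugt1a9 were 2 of 9 members in Prmt6KO, against 7.69%, and no member, as no other gene, had it in Igf2bp2KO.

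At the other end all members were alike because they share it. A peak lay within 1 kb of the end of 9 of 9 members in each of the 6 libraries, which is 1 stretch of sequence and not 9 observations. A share of all genes for this end alone was not counted. By the wider count of a peak at either end in both libraries, 9 of 9 members were called in each genotype. That count held for 29% of genes in Prmt6KO, 0.208% in Igf2bp2KO and 3.56% in WT. At the end at 88220002, the highest peak had 9 and 14 fragments in Prmt6KO, 19 and 15 in Igf2bp2KO, and 18 and 14 in WT. At the end annotated for Ugt1a6b and Ugt1a8, which is 88218998, it had 9 and 14 in Prmt6KO, 11 and 11 in Igf2bp2KO, and 18 and 14 in WT. The Igf2bp2KO value alone changed between both ends, since its highest peaks began after 88220002. Counting (fragments + 1) over (background + 1), the peaks at the earlier end reached 5.76 and 6.79 in Prmt6KO, 4.89 and 5.14 in Igf2bp2KO, and 7.72 and 6.15 in WT. A limit of 6 on that measure falls between Igf2bp2KO and WT for Ugt1a6b and Ugt1a8, and at the later end it does not, with 8.16 and 6.86 in Igf2bp2KO. Counting all listed peaks at gene ends, 0 of 9 members were lost in Prmt6KO, against 0.425% of genes, and 0 of 9 in Igf2bp2KO, against 3.31%.

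Upstream of the boundary, the Prmt6KO and WT libraries had between 0.854 and 1.91 times the number of peaks expected from their lists. The 161 kb held 68 and 32 peaks in Prmt6KO, 0 and 0 in Igf2bp2KO, and 19 and 7 in WT. Expected from mean density were 49.7 and 26.3 in Prmt6KO, 0.0588 and 0.0747 in Igf2bp2KO, and 9.94 and 8.20 in WT. The ratios were 1.37 and 1.22 in Prmt6KO, and 1.91 and 0.854 in WT. No summit exceeded 7 and 6 fragments in Prmt6KO or 8 and 7 in WT. The lowest summits listed anywhere in the Igf2bp2KO libraries were 8 and 7 fragments, so peaks of the height seen in the WT libraries would hardly be listed there, and a difference of Igf2bp2KO from WT was not detectable upstream. Backgrounds in fragments were close, 1.45 and 1.33 in Igf2bp2KO and 1.46 and 1.44 in WT, and the higher lowest summit went with the authors' scaled pileup. By intervals between starts, the number of peaks in Prmt6KO ran from 0.903 times the expected number after the Ugt1a8 start to 1.59 times after the Ugt1a5 start in replicate 1, and from 0.392 times after Ugt1a6a to 3.70 times after Ugt1a7c in replicate 2. The interval after the Ugt1a7c start, 8.26 kb long, held 4 and 5 peaks in Prmt6KO, 0 and 0 in Igf2bp2KO, and 1 and 0 in WT. The interval after the Ugt1a9 start, 17.0 kb long, held 8 and 7 peaks in Prmt6KO, 0 and 0 in Igf2bp2KO, and 4 and 0 in WT, so the WT libraries did not repeat each other there.

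In Prmt6KO and WT, part of the upstream peaks and all of the downstream ones overlapped a peak of the other library of the genotype. In Prmt6KO, 11 of 68 peaks of replicate 1 (16.2%) and 13 of 32 of replicate 2 (40.6%) overlapped a peak of the other library by at least 1 bp, against 11.5% and 21.6% of the whole lists. In WT these were 1 of 19 (5.26%) and 1 of 7 (14.3%), against 6.06% and 7.34%. In the downstream part all peaks did so in Prmt6KO (7 of 7 and 6 of 6) and in WT (10 of 10 and 12 of 12), and 7 of 11 and 6 of 10 did in Igf2bp2KO, against 56.2% and 43.7% of its whole lists. The single WT pair upstream lay between the Ugt1a6b and Ugt1a6a starts, at 88118239 to 88118438 with 7 fragments in replicate 1 and at 88118164 to 88118363 with 6 fragments in replicate 2. The highest Prmt6KO pair lay after the Ugt1a7c start, at 88101093 to 88101376 with 5 fragments and at 88100930 to 88101401 with 6 fragments. Of the Prmt6KO positions, 88075342 to 88075799 after Ugt1a9, 88162979 to 88163831 before Ugt1a5 and 88173047 to 88173253 after Ugt1a5 also overlapped a peak of WT replicate 1.

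In the upstream part 8 peaks reached 6 times their background, all in Prmt6KO replicate 1, the library with the lowest background, at 5 to 7 fragments. The highest, from 88202490 to 88202826 after the Ugt1a2 start, had 7 fragments or 9.50 times the background and was the 1 upstream peak with a q of 0.05 or below. The next, from 88179449 to 88179767 after Ugt1a5, had 6 fragments or 8.15 times. The part of the low background in this count was not tested. WT replicate 1 reached more fragments upstream, 8, but 5.48 times its background.

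Summits away from gene ends were tested between Prmt6KO and WT, but they are not independent of the choice of the family. Wide peaks with a summit in the gene body can reach a gene end, as the peak from 88211838 to 88216437 in Prmt6KO replicate 2 does at the Ugt1a1 start. Summits more than 1 kb from any gene end, over 151 kb, numbered 65 and 31 in Prmt6KO, 7 and 8 in Igf2bp2KO, and 22 and 15 in WT. The counts expected from mean density were 46.6 and 24.7 in Prmt6KO, 0.0551 and 0.0700 in Igf2bp2KO, and 9.32 and 7.69 in WT. On the log2 scale of observed over expected, with 0.5 added to both, the values were 0.48 and 0.32 in Prmt6KO and 1.20 and 0.92 in WT. Both WT libraries were higher than both Prmt6KO libraries, by a mean difference of -0.66 for Prmt6KO minus WT (two-sided exact permutation test, p = 0.333, n = 2 each). This p is the smallest that 6 splits allow, so the design cannot reach 0.05. In the upstream part alone, without the stretch at Ugt1a1, the difference was -0.05 (exact permutation p = 1). The count takes a wide peak as 1 summit, and the expected count rises with the length of the list. In the downstream 14 kb, Prmt6KO had 7 and 6 summits, with 86.8% and 89.0% of bases covered. WT had 10 and 12 summits there, with 81.1% and 78.3% covered. A lower count in Prmt6KO is thus not a lower coverage, and the parts of width and list length were not tested. Igf2bp2KO was left out of the test because its expected counts are below 1.

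Other genes of the glucuronidation pathway were counted in the same way; since the Ugt1a genes were chosen by peaks at their ends, their heights are not compared with these. A list of 29 genes (other UDP-glycosyltransferases, suppliers of UDP-glucuronic acid, regulators of Ugt1a genes and exporters of conjugates) was counted by a peak within 1 kb of either gene end in both libraries. This held for 10 of 29 in Prmt6KO, 0 of 29 in Igf2bp2KO and 3 of 29 in WT, beside 29%, 0.208% and 3.56% of all genes. The Prmt6KO count is near the share of all genes. Ugt2a1 and Ugt2a2, which overlap each other, had 5 and 5 fragments in Prmt6KO. Ugt2a2 had 4 and 6 fragments in WT, and Ugt2a1 had 5 and 0. Arnt, the partner of AHR, had 4 and 5 fragments in Prmt6KO and no listed peak in WT. Ugt2b36, Slc35b1, Ugt2b38, the UDP-glucose dehydrogenase gene Ugdh and Abcc2, which exports bilirubin conjugates, had 3 or 4 fragments in each Prmt6KO library. In WT, Abcc2 had 6 and 6 fragments, Ugdh 8 and 0, Ugt2b38 0 and 8, and Ugt2b36 5 and 0, and Slc35b1 had no listed peak. Ugp2, which makes UDP-glucose, had 8 and 7 fragments in WT and no listed peak in Prmt6KO or Igf2bp2KO. Over all 29 genes the highest summit was 5 and 6 fragments in Prmt6KO and 8 and 8 in WT, and no peak was listed in Igf2bp2KO.

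The genes outside the family whose heights at their ends were most like the Ugt1a1 start were found by Euclidean distance over the 6 libraries, on log2 of the multiple of background plus 1. The nearest was C130026I21Rik on the same chromosome at a distance of 0.575, with 11 and 7 fragments in Prmt6KO, 12 and 0 in Igf2bp2KO, and 10 and 9 in WT. Hjurp, which lies in the same stretch of peaks, followed at 0.603, with 7 and 10 fragments in Prmt6KO, 13 and 0 in Igf2bp2KO, and 15 and 7 in WT. Gm4981 on chromosome 10 came next at 0.604, with 12 and 10 fragments in Prmt6KO, 18 and 0 in Igf2bp2KO, and 13 and 8 in WT. Gm7592 at 0.775 and 4931408C20Rik at 0.832, both on chromosome 1, completed the 5. These 5 had no listed peak at either end in Igf2bp2KO replicate 2, as the Ugt1a1 start had none, so likeness rests in part on that library. The measures differ, since Ugt1a1 entered by its start alone and the 5 by both ends. At the Ugt1a1 end the highest peak had 15 fragments in that library.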

How the data were processed

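H3R2me2a ChIP-seq of 6 libraries was analysed from the deposited peak lists, 1 list per library. Per the submitters' processing notes, reads were handled with MACS2 2.1.0, HISAT2, Trim Galore, bedtools and bcl2fastq 2.17 on mm10, with settings and order not stated. Per the file headers, each peak carried a pileup (a coverage signal), a fold enrichment (a ratio) and −log10 p-values and q-values, all computed by the authors. In each list, fold equalled (pileup + 1) over (background + 1) with 1 background, and dividing the Igf2bp2KO pileups by their smallest step gave whole fragments. Read totals are not given in the sources used here. Peaks on chromosomes 1 to 19 and X were used.

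The Ugt1a members, the gene lists and the tests were chosen with earlier results of these data known. Gene positions and promoters came from RefSeq (GRCm38.p6); strand was known (for Ugt1a6b taken from Ugt1a8) for 17274 of 21627 protein-coding genes. A window was called when at least 1 bp of a peak lay within 1000 bp of a gene start or end. Expected counts are the list's mean density over 2631613017 bp times the length. Groups came from the sample titles, and genotypes were compared by a two-sided exact permutation test. Named were all members, region peaks of at least 6 times the background and positions shared by both libraries (up to 12, of which the highest and those also in other genotypes are given), the 5 genes most like the Ugt1a1 start, and up to 8 genes of the glucuronidation list by the lower of both fold enrichments. Python 3.11.15, numpy 2.4.6, pandas 2.3.3, scipy 1.17.1 and Biopython 1.88 (promoter alignment) were used, and the recovery of fragments and the window counts were checked on simulated lists. Alternatives changed the peak filter (q of 0.05, fold of 4, 6 times the background), the window, the pseudocount, the expected density, the overlap and the libraries used. Of these, 2 were chosen after seeing the data: the upstream part alone and a limit on (fragments + 1) over (background + 1).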

Additional observations from a re-analysis of the deposited data

How the results depend on the processing

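The difference in body peaks between Prmt6KO and WT (-0.66) had the same sign in the 13 alternatives run, from -1.04 at 6 times the background to -0.05 upstream of the boundary (exact permutation p = 1). No p could fall below 0.333, so this says nothing of stability. The groups overlapped (exact permutation p = 0.667) with the 2.5 kb distance and with the limit on (fragments + 1) over (background + 1). Expected counts are below 1 in all 4 libraries at a q of 0.05, at a fold of 4 and at that limit, and in 3 of 4 at 6 times the background, so the added 0.5 largely sets those values. With the replicate number as a block, the value was -0.66 (exact sign-flip p = 0.5, the smallest that 2 pairs allow). The labels do not say that a number marks a shared culture or day, and 2 pairs cannot test the pairing. Leaving out 1 library gave -0.80 to -0.52.

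Members with a start peak in both Prmt6KO libraries fell to 1 with a q of 0.05, a fold of 4 or 6 times the background, and to 0 with a limit of 6 on (fragments + 1) over (background + 1), and numbered 8 with a window of 2.5 kb. That last limit on height, chosen after seeing the data, also left 0 in WT, and the 2.5 kb window gave 1 in Igf2bp2KO. Leaving out 1 library gave 4 to 6 members in Prmt6KO, 0 to 1 in Igf2bp2KO and 1 to 3 in WT. Members lost in Igf2bp2KO numbered 1, Ugt1a1, at a q of 0.05 or a fold of 4, since its lists hold no region peak at that q, and 0 to 2 without 1 library (2 without WT replicate 2). None was lost in Prmt6KO under the 10 alternatives run.

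The highest summit, Prmt6KO minus WT, was 1.55 times the background, -0.37 in the authors' fold and -4 in fragments, and 0.260 to 2.85 without 1 library. Igf2bp2KO minus WT was 1.14, -2.73 in the authors' fold and -0.153 to 2.43 without 1 library. The fold's scaling of the Igf2bp2KO pileups enters its value by construction; other causes were not tested. Shares of overlapping peaks within the region moved in 4 of 4 alternatives in both Prmt6KO libraries, 2 of 3 and 1 of 2 in Igf2bp2KO, and 4 of 4 and 1 of 4 in WT. In the Igf2bp2KO lists no summit under 8 and 7 fragments was listed, so lower peaks there cannot be compared with WT.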
